A study of Mus musculus with 18 samples.

Results

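Transcripts of 9 glycolysis enzymes were followed in db/db livers and in AML12 hepatocytes after recombinant mouse serum albumin (rMSA). The genes were chosen by name: Gpi1, Pfkl, Pfkfb1, Aldoa, Pgk1, Eno1, Pklr, Pkm and Ldha, and each was found once by its symbol among 16533 genes of the liver table and among 15579 genes of the AML12 table. The livers came from 6 male mice, all of the strain B6.Cg-dock7m Leprdb/++/J. Such db/db mice carry a leptin receptor mutation and are a model of obesity with type 2 diabetes. Of these mice, 3 had received rMSA intravenously at 1.5 mg per g of body weight, with 3 injections spaced 3 weeks apart over 9 weeks, and 3 had received saline in the same way. Their age was not given in the labels. The AML12 libraries, labelled WT, were made after a night without serum and then 24 h with 600 µM rMSA + 10 nM insulin, with 600 µM rMSA, with 10 nM insulin, or with vehicle (3 libraries each). The maintenance medium of all AML12 cells contained insulin and dexamethasone. AML12 is a single immortalized mouse hepatocyte line, and the labels did not say whether its libraries came from separate cultures, so its p-values may measure technical spread only.

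Glycolysis splits glucose into pyruvate in the cytosol, and several of its steps are run by isoforms that differ between tissues. Hepatocytes use liver forms such as Pklr (pyruvate kinase L), Pfkl (phosphofructokinase L) and Pfkfb1, while proliferating and cultured cells rely on ubiquitous forms such as Pkm and Aldoa. In the liver, glucose and insulin act on transcription of Pklr through carbohydrate response elements bound by ChREBP, and hypoxia-inducible factor HIF-1 acts on genes such as Ldha and Pgk1 through a short core sequence.

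All values are TPM (transcript abundances that are scaled for transcript length and library size), so levels of different genes can be set side by side within a table. The liver and AML12 tables were normalized separately, and no test was made between them. Read depth was unknown because the tables hold no counts. The markers of hepatocytes summed to 84264 to 88771 TPM in rMSA livers and 73781 to 92485 TPM in saline livers, but to only 181 to 440.2 TPM over the AML12 libraries, whereas markers of bile duct cells summed to 1838 to 2389 TPM in AML12. AML12 cells thus held little of the hepatocyte marker RNA found in the livers, and up to 2 of 8 hepatocyte markers were at 0 throughout a group. Insulin libraries 1 and 2 stood apart: ribosomal protein genes took 33.6% and 36.3% of their TPM, against 26.9% in insulin library 3 and 22.2% to 28.1% in the other AML12 libraries.

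Upstream sequences are shown for 3 enzymes because these had the largest fold change in the livers (Pklr) or rose in both AML12 comparisons with rMSA (Ldha and Pkm). The windows, from RefSeq (GRCm38.p6), run from 250 bases before to 50 bases after an annotated start, 5′ to 3′ on the plus strand, and all 9 genes matched at least 1 window. Capitals mark the carbohydrate response element in the window of the second Pklr start (chr3:89136373-89136672), the HIF core on either strand in the window of the first listed Ldha start (chr7:46845554-46845853), and the GC box in the window of the first Pkm start (chr9:59656326-59656625).
Pklr: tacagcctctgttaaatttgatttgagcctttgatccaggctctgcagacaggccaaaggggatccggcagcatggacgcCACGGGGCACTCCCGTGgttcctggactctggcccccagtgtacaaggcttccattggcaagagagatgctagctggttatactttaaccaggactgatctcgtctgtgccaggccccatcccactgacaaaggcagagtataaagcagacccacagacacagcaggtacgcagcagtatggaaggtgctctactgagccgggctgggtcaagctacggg
Ldha: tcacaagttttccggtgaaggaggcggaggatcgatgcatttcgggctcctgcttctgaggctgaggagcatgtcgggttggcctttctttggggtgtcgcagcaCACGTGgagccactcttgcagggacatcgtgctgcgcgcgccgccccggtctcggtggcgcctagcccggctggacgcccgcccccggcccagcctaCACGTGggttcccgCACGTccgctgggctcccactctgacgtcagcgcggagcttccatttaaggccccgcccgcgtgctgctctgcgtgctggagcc
Pkm: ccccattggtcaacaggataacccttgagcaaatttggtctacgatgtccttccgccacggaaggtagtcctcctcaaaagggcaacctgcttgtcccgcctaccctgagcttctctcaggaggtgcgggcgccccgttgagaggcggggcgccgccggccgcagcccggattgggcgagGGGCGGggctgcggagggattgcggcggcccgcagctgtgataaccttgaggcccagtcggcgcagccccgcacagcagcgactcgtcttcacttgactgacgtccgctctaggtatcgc
The carbohydrate response element was searched on both strands as CACGNG and CNCGTG with 5 bases of any kind between them, and it was held by 15 of 32851 windows (0.0457%). Its first base lay at -170 from the start site in Pklr, and no other window of the 9 genes held it, including that of the upstream Pklr start, which is known for use in red blood cells. The HIF core was searched as ACGTG on both strands, and 19.6% of windows held it. The Ldha window held 5 matches at 3 places, since at 2 of these the E-box CACGTG reads as a core on both strands, and 7.15% of windows held an E-box. Windows of Aldoa, Pgk1 and the second Pkm start also held the HIF core. The GC box, GGGCGG on either strand, was present once in the Pkm window shown and in 35.7% of windows. These letters are a description of the windows and show no binding.

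In the livers, most of the glycolytic enzymes had more mRNA after rMSA. Pklr, Gpi1, Eno1, Pfkfb1, Aldoa, Ldha and Pfkl rose, whereas Pgk1 and Pkm did not pass the test. The rise was by far the greatest for the liver pyruvate kinase, about 12.4-fold on the TPM + 1 scale, while Pkm, the other pyruvate kinase gene, averaged 39.6 TPM with rMSA and 34.2 TPM with saline. In limma on log2(TPM + 1) with a Benjamini-Hochberg adjusted p under 0.05 over 11398 tested genes, 7 of 9 enzymes rose and 0 fell, and at an unadjusted p under 0.05 8 were higher and 0 lower. Of all tested genes, 21.8% rose and 8.38% fell after adjustment, and at an unadjusted p under 0.05 3341 were higher and 1350 lower. The median log2 fold change of the 9 enzymes was 0.70, against 0.12 for all tested genes.

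**Figure D1:**
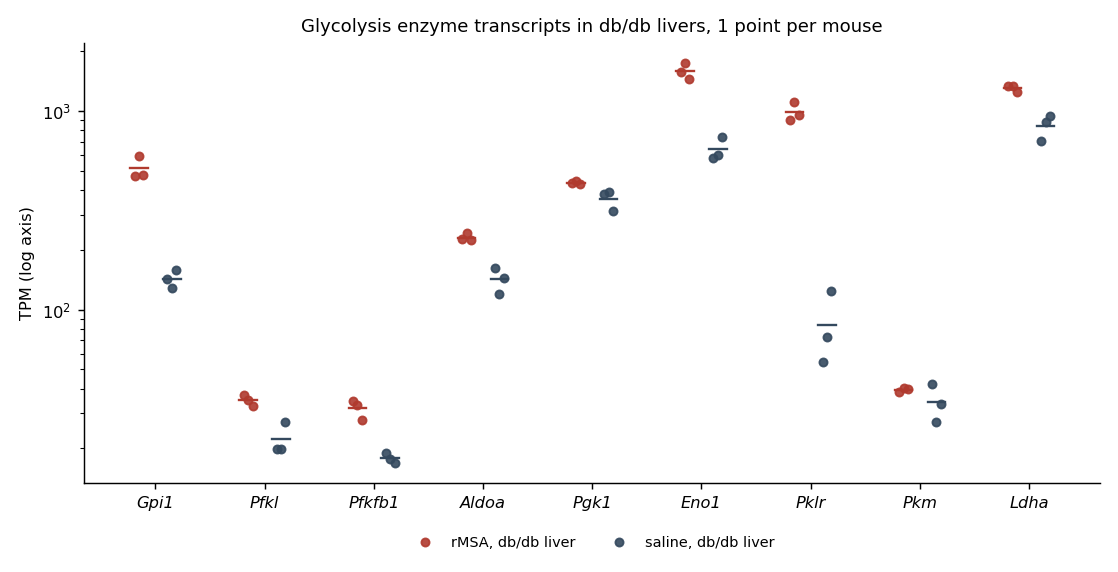
TPM on a log axis of the 9 enzymes in each rMSA-treated (red) and saline-treated (dark blue) db/db liver, where a point is a mouse and a short line the mean (n = 3). The Pklr points of rMSA livers lie between 903 and 1111 TPM, all above those of saline livers, and the Pkm points of the groups overlap.

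Pklr (chr3:89136122-89146815, GRCm38.p6, as are all positions here) converts phosphoenolpyruvate to pyruvate in the last step of the pathway. Its level was 903, 1111 and 960.1 TPM in rMSA livers, against 54.5, 72.8 and 124 TPM in saline livers. The lowest rMSA liver was far above the highest saline liver, and the saline livers varied more relative to their mean. The means were 991 ± 107 TPM with rMSA and 83.7 ± 35.9 TPM with saline (SD, n = 3), and the log2 fold change was 3.63 (SE 0.26, limma adjusted p = 4.96e-05). Pkm (chr9:59656576-59679372), which encodes the muscle and ubiquitous pyruvate kinases, had 38.6, 40.3 and 39.8 TPM in rMSA livers, against 42.2, 27.2 and 33.3 TPM in saline livers. The highest Pkm value was that of a saline liver, and the log2 fold change of 0.23 had a 95% interval of -0.13 to 0.58 (limma adjusted p = 0.314).

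The share of Pklr in the pyruvate kinase mRNA was higher in every rMSA liver than in any saline liver. Its share of the summed TPM of Pklr and Pkm was 95.9% to 96.5% in rMSA livers and 56.4% to 78.8% in saline livers, with means of 96.1% and 69.3%. The difference of 26.8 points had an exact permutation p of 0.1 (two-sided), the smallest that 3 against 3 livers allow. A share within a library does not depend on how that library was scaled.

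Pklr is also made in red blood cells. The red cell markers summed to 2484 to 3400 TPM in rMSA livers and 2921 to 4068 TPM in saline livers, and of 6 tested markers 0 rose and 1 fell in limma (Klf1, log2 fold change -1.43; 0 and 2 at an unadjusted p under 0.05). At gene level the red cell and liver transcripts of Pklr, or the M1 and M2 transcripts of Pkm, cannot be told apart. In bulk tissue, more cells of a type and more RNA per cell cannot be told apart either.

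The upper steps moved with smaller folds. Gpi1 (chr7:34201327-34230336), which interconverts glucose 6-phosphate and fructose 6-phosphate, had 469, 596 and 478 TPM in rMSA livers, against 142, 128 and 159 TPM in saline livers. The groups were well apart (log2 fold change 1.84, SE 0.13, limma adjusted p = 4.51e-05). Pfkl (chr10:77986947-78009807), a subunit of the phosphofructokinase that commits sugar to glycolysis, had 37.2, 35.0 and 32.7 TPM in rMSA livers, against 20.0, 19.9 and 27.2 TPM in saline livers. All rMSA livers were higher, though saline liver 3 lay nearer to them (log2 fold change 0.63, SE 0.14, limma adjusted p = 0.0113). Its isoforms Pfkm and Pfkp, the muscle and platelet types, averaged 13.3 and 2.35 TPM with rMSA, against 16.2 and 2.10 TPM with saline, and neither passed the test. The share of Pfkl in the summed TPM of the 3 was 67.6% to 70.1% in rMSA livers and 53.5% to 57.2% in saline livers.

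Pfkfb1 (chrX:150587445-150643878) encodes the liver form of the bifunctional enzyme that makes and breaks down fructose 2,6-bisphosphate, the activator of phosphofructokinase. It had 34.8, 32.9 and 27.9 TPM in rMSA livers, against 18.9, 17.7 and 16.9 TPM in saline livers. The groups did not overlap (log2 fold change 0.80, SE 0.12, limma adjusted p = 0.00177). Of the other genes of this enzyme, Pfkfb2 fell to 6.59 TPM in rMSA livers, against 18.9 TPM in saline livers (log2 fold change -1.43, limma adjusted p = 0.00704). Pfkfb4 rose at a low level, with 1.46 TPM against 0.60 TPM (limma adjusted p = 0.0208), and Pfkfb3 averaged 5.22 TPM with rMSA and 4.79 TPM with saline without passing. Pfkfb1 took 60.3% to 76.2% of the summed TPM of the 4 genes in rMSA livers and 39.6% to 47.7% in saline livers.

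Aldoa (chr7:126795234-126800994), the ubiquitous aldolase that cleaves fructose 1,6-bisphosphate, had 226, 242 and 223 TPM in rMSA livers, against 162, 120 and 145 TPM in saline livers. Every rMSA liver was higher (log2 fold change 0.70, SE 0.12, limma adjusted p = 0.0038). Its isoform Aldoc also rose, with 7.18 TPM in rMSA livers against 2.98 TPM in saline livers.

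Pgk1 (chrX:106187100-106203699), the first enzyme of the pathway that yields ATP, had 436, 443 and 427 TPM in rMSA livers, against 382, 392 and 314 TPM in saline livers. The groups did not overlap, but the log2 fold change of 0.27 (95% interval 0.02 to 0.52) did not pass after adjustment (limma adjusted p = 0.1). Eno1 (chr4:150236708-150248879), the enolase that forms phosphoenolpyruvate, had 1566, 1753 and 1453 TPM in rMSA livers, against 582, 603 and 743 TPM in saline livers. The lowest rMSA liver was clearly above the highest saline liver, and the log2 fold change was 1.31 (SE 0.13, limma adjusted p = 2.2e-04). Its isoform Eno3, the muscle enolase, averaged 4.44 TPM with rMSA and 6.57 TPM with saline (limma adjusted p = 0.0528), and Eno1 made up at least 98.7% of the TPM of Eno1, Eno2 and Eno3 in every liver. Part of the sequence of Pgk1 and Eno1 recurs in other genes: 68.0% of the 50-base runs of Pgk1 transcripts also occurred in other genes, chiefly the pseudogene Pgk1-rs7, and 49.5% of those of Eno1, chiefly in Eno1b. Eno1b was listed at 0 to 0.88 TPM in the livers. The shares were 23.7% for Pkm, 18.6% for Gpi1, 10.4% for Ldha and 6.57% for Aldoa, and at most 0.0532% for Pklr, Pfkl and Pfkfb1, so the values of Pgk1 and Eno1 are less certain than those of the last group.

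Ldha (chr7:46842274-46855627), the lactate dehydrogenase subunit that favours the reduction of pyruvate to lactate, had 1335, 1339 and 1252 TPM in rMSA livers, against 709, 881 and 940.3 TPM in saline livers. All rMSA livers were higher (log2 fold change 0.64, SE 0.13, limma adjusted p = 0.00615). Ldhb, the other main subunit, averaged 5.34 TPM with rMSA and 3.79 TPM with saline, and Ldha made up at least 99.3% of the TPM of both in every liver. After each library was centred on its median gene, 1642 genes rose and 1496 fell in the livers instead of 2487 and 955, and Ldha (log2 fold change 0.50, limma adjusted p = 0.072) and Pfkl (0.49, adjusted p = 0.075) no longer passed, whereas the other 5 enzymes did.

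By mean level in rMSA livers, the order was Eno1, Ldha, Pklr, Gpi1, Pgk1, Aldoa, Pkm, Pfkl and Pfkfb1. In saline livers the order was Ldha, Eno1, Pgk1, Gpi1, Aldoa, Pklr, Pkm, Pfkl and Pfkfb1, where the values of Ldha and Eno1, Gpi1 and Aldoa, Aldoa and Pklr, and Pfkl and Pkm overlapped. In rMSA livers only the neighbours Pfkl and Pfkfb1 overlapped. Pklr thus ranked 125 of 16533 genes by mean TPM in rMSA livers, against 1337 in saline livers. The 9 enzymes together took 0.489% to 0.559% of all TPM in rMSA livers and 0.211% to 0.250% in saline livers.

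The rest of the pathway was described from a list of 31 glycolysis genes. Of the 19 tested list genes other than the 9, 9 rose, 1 fell (Pfkfb2) and 9 did not pass in the livers, with a median log2 fold change of 0.35. Of 5 tested carriers of lactate and pyruvate, 4 rose and 0 fell in limma (adjusted p): Slc16a1, Slc16a7, Mpc1 and Mpc2, with log2 fold changes of 0.31 to 0.92.

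Of 17 genes on a list of the ChREBP pathway, which did not hold Pklr, 14 rose, 0 fell and 3 did not pass in limma, with a median log2 fold change of 2.03. Fasn (fatty acid synthase) averaged 522 TPM with rMSA and 31.7 TPM with saline, Elovl6 (a fatty acid elongase) 95.5 and 4.41 TPM, Me1 (malic enzyme) 426 and 46.8 TPM, and Acaca (acetyl-CoA carboxylase) 124 and 14.2 TPM. Of 18 tested genes of the HIF-1 pathway, 3 rose and 2 fell with a median of 0.17. Among all tested liver genes, 21.8% rose and 8.38% fell, with a median of 0.12. Pdk1, a kinase that inhibits pyruvate dehydrogenase, rose with 46.1 TPM against 20.0 TPM, and Ddit4, an inhibitor of mTORC1 signalling, fell to 13.5 TPM with rMSA, against 95.7 TPM with saline. Among 6020 genes that were in no list and averaged 10 TPM or more, Ech1 and Vnn1 had patterns among the 3 most like Pklr over the 6 livers (Pearson r = 0.999 each, a description of libraries that split into 2 groups). Vnn1, for example, had 92.4 to 97.8 TPM in rMSA livers and 2.53 to 8.13 TPM in saline livers.

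Markers of stellate and bile duct cells were higher in rMSA livers, while those of the other cell types were mixed or overlapped. Stellate cell markers summed to 341 to 447 TPM in rMSA livers and 175 to 317 TPM in saline livers, and 6 of 10 rose, with Col3a1 at 33.8 TPM against 6.33 TPM. Bile duct markers summed to 96.9 to 194 TPM in rMSA livers and 36.8 to 50.9 TPM in saline livers, and 5 of 7 tested rose, with Spp1 at 114 TPM against 24.7 TPM. Of 9 hepatocyte markers 2 rose and 5 fell. Endothelial markers summed to 239 to 245 TPM in rMSA livers and 189 to 250 TPM in saline livers, and 1 of 10 rose and 0 fell. Of 5 tested lymphocyte markers 1 rose and 1 fell, and the sums overlapped. The macrophage sums overlapped (406 to 613 TPM with rMSA and 378 to 600.1 TPM with saline), while 2 of 10 markers rose (Cd68 and Cd14) and 2 fell (Marco, log2 fold change -3.04, and Timd4, -1.28). The part of these cells in the enzyme values was not tested.

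**Figure D2:**
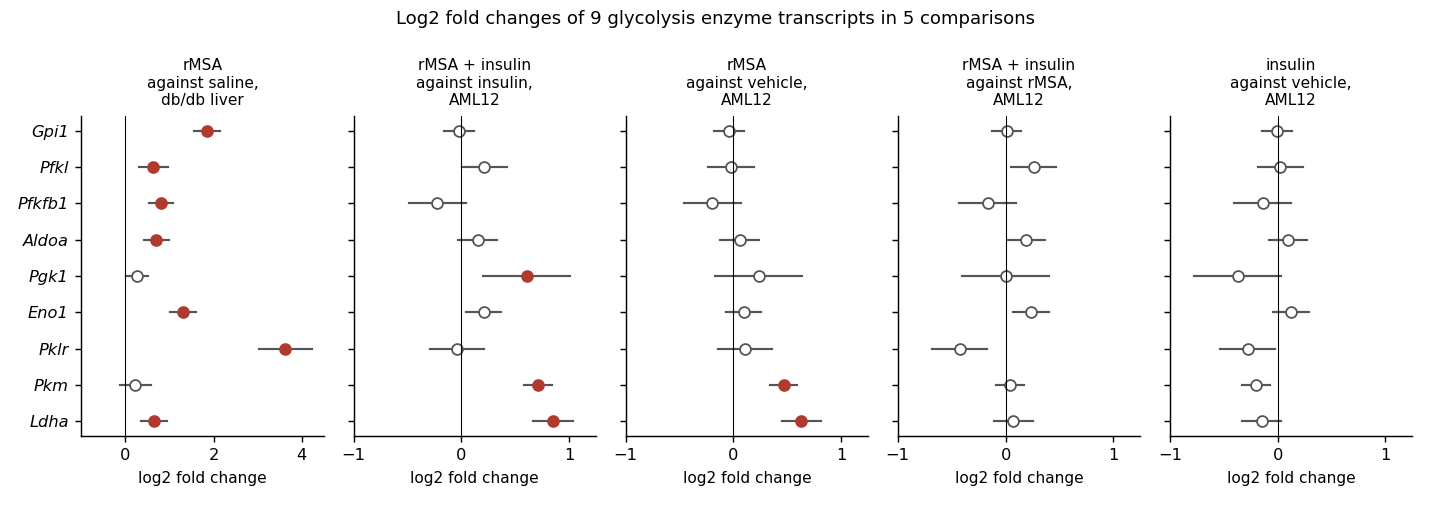
Log2 fold change with its 95% interval for the 9 enzymes in 5 comparisons, on a wider axis for the livers than for AML12, with filled red points for genes past the threshold (limma, adjusted p under 0.05) and open points for the others. Filled points number 7 in the livers, 3 for rMSA + insulin against insulin, 2 for rMSA against vehicle and 0 in the last 2 panels.

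In AML12 hepatocytes, fewer of these enzymes passed the test, chiefly the lactate dehydrogenase and the ubiquitous pyruvate kinase. Ldha and Pkm rose with rMSA both against vehicle and, in the presence of insulin, against insulin. Pgk1 rose in the presence of insulin but did not pass without insulin libraries 1 and 2, and Pklr, the gene with the greatest rise in the livers, did not pass in either comparison. In limma over 10826 tested genes, 2 of 9 enzymes rose and 0 fell for rMSA against vehicle. Of all tested genes there, 5.9% rose and 1.89% fell. At an unadjusted p under 0.05 the enzyme counts were the same 2 and 0, against 1438 and 602 of all tested genes. For rMSA + insulin against insulin 3 rose and 0 fell, where 14.5% of all tested genes rose and 2.73% fell. At an unadjusted p under 0.05 the enzyme counts were 5 and 0, against 2761 and 565 of all tested genes. The median log2 fold changes of the 9 were 0.09 and 0.21, against 0.06 and 0.21 for all tested genes.

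**Figure D3:**
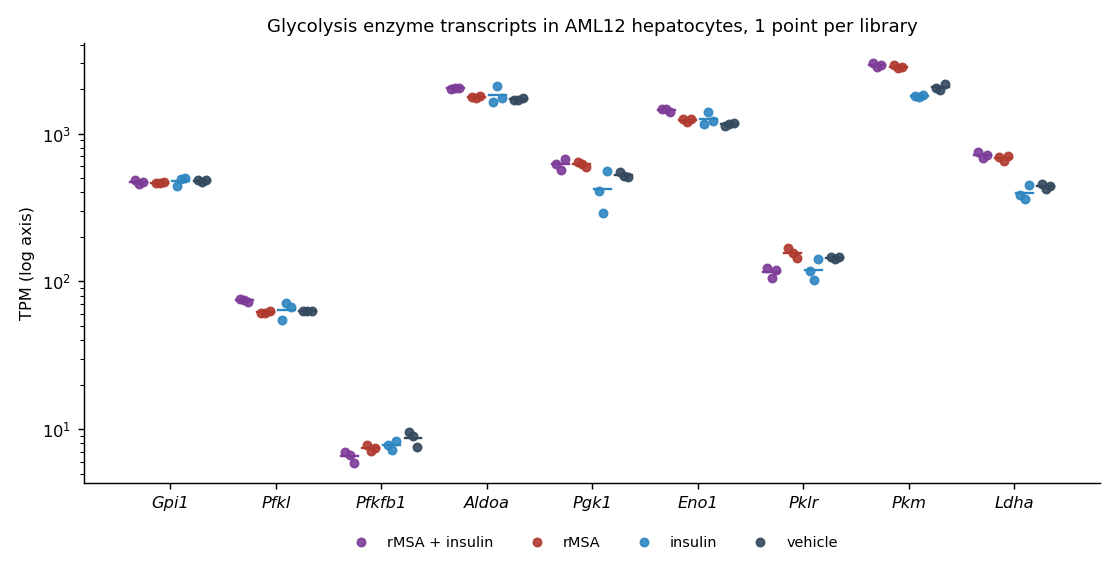
TPM on a log axis of the 9 enzymes in each AML12 library with rMSA + insulin (purple), rMSA (red), insulin (light blue) or vehicle (dark blue), where a short line is the mean (n = 3). For Ldha and Pkm the libraries with rMSA lie above all libraries without it, and for Pgk1 insulin libraries 1 and 2 lie lowest, at 408 and 291 TPM.

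Ldha had 746, 683 and 720.3 TPM with rMSA + insulin, against 382, 363 and 449 TPM with insulin. It had 694, 649 and 702 TPM with rMSA, against 454, 423 and 442 TPM with vehicle. All 6 libraries with rMSA were above all 6 without it. The log2 fold changes were 0.85 in the presence of insulin (SE 0.08, limma adjusted p = 7.46e-05) and 0.63 in its absence (SE 0.08, adjusted p = 8.1e-04), and they passed in each of the 24 alternatives that set no minimum fold. The interaction of rMSA and insulin for Ldha was 0.22 (95% interval -0.04 to 0.48, limma adjusted p = 0.874).

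Pkm had the highest mean of the 9 with rMSA + insulin, rMSA and vehicle, while with insulin Aldoa averaged 1829.7 TPM and Pkm 1792 TPM. Pkm had 3019, 2831 and 2934 TPM with rMSA + insulin, against 1788, 1766 and 1823 TPM with insulin. It had 2892, 2800.3 and 2824 TPM with rMSA, against 2029.6, 1985 and 2159 TPM with vehicle. No library without rMSA reached one with it. The log2 fold changes were 0.71 in the presence of insulin (SE 0.06, limma adjusted p = 2.59e-05) and 0.46 in its absence (SE 0.06, adjusted p = 6.55e-04). Centred on the median gene they were 0.45 (adjusted p = 0.142) and 0.40 (adjusted p = 0.264), and all tested genes then split into 707 higher and 740 lower instead of 1575 and 296 in the presence of insulin, and into 607 and 333 instead of 639 and 205 in its absence.

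Pklr had 124, 105 and 119 TPM with rMSA + insulin, against 117, 103 and 141 TPM with insulin. It had 169, 157 and 144 TPM with rMSA, against 145, 142 and 147 TPM with vehicle. Both pairs of groups overlapped, with log2 fold changes of -0.04 (95% interval -0.29 to 0.21) and 0.11 (-0.14 to 0.36). Pkm dominated the pyruvate kinase mRNA of AML12, and the share of Pklr was lower still with rMSA: 3.58% to 3.95% with rMSA + insulin, against 5.49% to 7.18% with insulin, and 4.85% to 5.51% with rMSA, against 6.39% to 6.67% with vehicle. The mean share was 4.52% in libraries with rMSA and 6.42% in those without, a difference of -1.91 points (exact permutation p = 0.005, two-sided, within the libraries with and without insulin, the smallest of 400 relabelings). It was -2.36 points (exact permutation p = 0.0125) without insulin libraries 1 and 2. In the livers the share was higher with rMSA, and the difference between livers and cells was not tested.

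**Figure D4:**
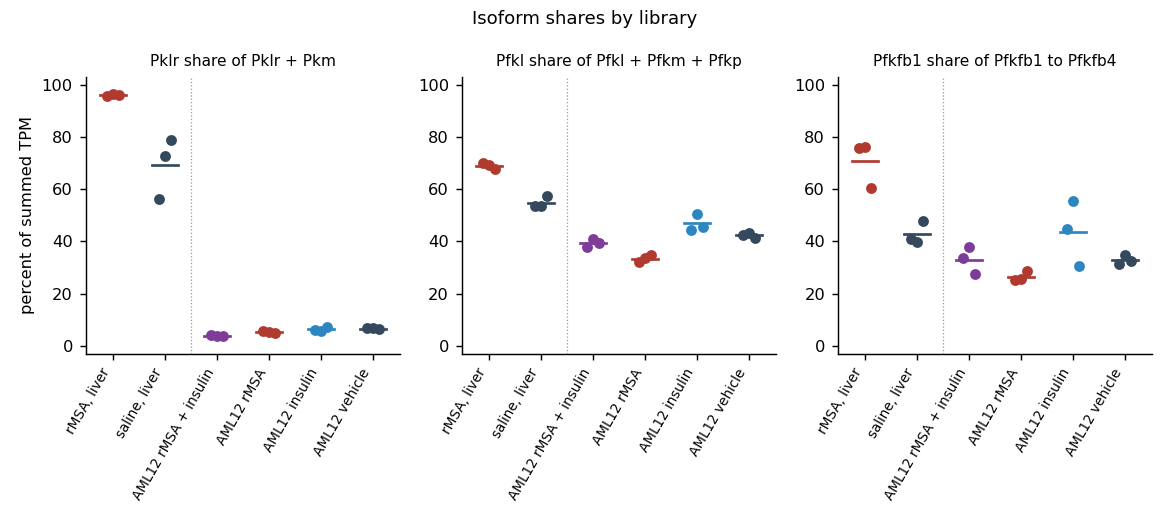
Share of the liver-type isoform in the summed TPM of its step, in percent, for Pklr, Pfkl and Pfkfb1, where a point is a library and a short line the mean (n = 3), livers left of the dotted line and AML12 right of it. Pklr makes up 96.1% of pyruvate kinase TPM in rMSA livers and 69.3% in saline livers on average, and at most 7.18% in any AML12 library.

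Pgk1 had 623, 566 and 669.8 TPM with rMSA + insulin, against 408, 291 and 562 TPM with insulin. Insulin libraries 1 and 2, which were rich in ribosomal protein mRNA, were the low ones, and insulin library 3 lay just under the lowest library with rMSA + insulin. The log2 fold change was 0.61 (SE 0.18, limma adjusted p = 0.043). It came to 0.14 (adjusted p = 0.265) without both libraries and did not pass when any single AML12 library except insulin library 3 was left out (adjusted p of 0.0502 without insulin library 2 and up to 0.152). Against vehicle, Pgk1 had 643, 621 and 590.2 TPM with rMSA and 549.6, 520.0 and 508 TPM with vehicle, a log2 fold change of 0.23 that did not pass (limma adjusted p = 0.646). These groups did not overlap, and the same fold passed in a fit of both groups alone (adjusted p = 0.0130) and without insulin libraries 1 and 2 (adjusted p = 0.0295), and with array weights the fold was 0.25 (adjusted p = 0.00151).

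The remaining enzymes varied little with rMSA. Eno1 had 1411 to 1477 TPM with rMSA + insulin and 1162 to 1405 TPM with insulin, and 1191 to 1253 TPM with rMSA and 1126 to 1182 TPM with vehicle. Neither difference passed (log2 fold changes 0.21 and 0.09), though Eno1 passed in the presence of insulin without insulin library 2 (log2 fold change 0.29, limma adjusted p = 0.00363), as did Aldoa (0.25, adjusted p = 0.007) and Pfkl (0.30, adjusted p = 0.0278). Eno1b, the near-copy of Eno1, was listed at 415 to 570 TPM in AML12, so reads of Eno1 there may be split between them.

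Aldoa had 1993 to 2045 TPM with rMSA + insulin and 1648 to 2086 TPM with insulin, and 1733 to 1809 TPM with rMSA and 1685 to 1729 TPM with vehicle. Gpi1 had 455 to 485 TPM with rMSA + insulin, 464 to 469 TPM with rMSA, 443 to 499.6 TPM with insulin and 469 to 484 TPM with vehicle. Pfkl had 72.9 to 76.0 TPM with rMSA + insulin and 54.5 to 72.0 TPM with insulin, and 61.1 to 63.4 TPM with rMSA and 62.6 to 63.4 TPM with vehicle. Pfkfb1 was low throughout, with 5.90 to 7.04 TPM with rMSA + insulin and 7.28 to 8.32 TPM with insulin, and 7.11 to 7.82 TPM with rMSA and 7.61 to 9.52 TPM with vehicle.

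Several other isoforms of these steps rose. Pfkm, the muscle phosphofructokinase, averaged 97.5 TPM with rMSA + insulin against 63.6 TPM with insulin, and 109 TPM with rMSA against 76.5 TPM with vehicle (log2 fold changes 0.61 and 0.51, limma adjusted p = 8.1e-04 and 0.00367). Pfkp averaged 17.5 TPM against 9.11 TPM and 14.6 TPM against 9.03 TPM in the same comparisons (0.89 and 0.64, limma adjusted p = 0.00151 and 0.0158). Eno3 averaged 81.1 TPM against 50.9 TPM and 74.4 TPM against 44.5 TPM (0.67 and 0.73, limma adjusted p = 0.00148 and 0.00136). The share of Pfkl in phosphofructokinase TPM was 37.9% to 40.8% with rMSA + insulin against 44.5% to 50.6% with insulin, and 31.9% to 34.6% with rMSA against 41.3% to 43.3% with vehicle. Pfkl thus took a smaller share with rMSA in AML12 and a larger one in the livers, and this difference was not tested.

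By mean level with vehicle the order was Pkm, Aldoa, Eno1, Pgk1, Gpi1, Ldha, Pklr, Pfkl and Pfkfb1, with no overlap between neighbours. The 9 enzymes took 0.821% to 0.855% of all TPM with rMSA + insulin and 0.601% to 0.658% with insulin, and 0.768% to 0.796% with rMSA and 0.645% to 0.672% with vehicle. Beside these values, the bile duct markers summed to 1838 to 2035 TPM with rMSA + insulin, 2169 to 2389 TPM with rMSA, 1873 to 2354 TPM with insulin and 1936 to 2101 TPM with vehicle, and 1 of 6 tested (Spp1) rose in both rMSA comparisons, while 1 other fell in the presence of insulin. The hepatocyte markers summed to 181 to 311 TPM with rMSA + insulin, 209 to 269 TPM with rMSA, 282 to 440.2 TPM with insulin and 305 to 381 TPM with vehicle. Their part in the enzyme values was not tested.

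Among the 16 tested glycolysis genes other than the 9, 10 rose and 0 fell for rMSA + insulin against insulin and 6 rose and 0 fell for rMSA against vehicle (limma), with median log2 fold changes of 0.45 and 0.34. Of 10 tested genes of the ChREBP list, 1 rose (Elovl6) and 1 fell (Gpd1) in the presence of insulin, and 0 passed in its absence in limma. At an unadjusted p under 0.05, 2 of the 10 were higher and 1 lower in its absence, against 1438 and 602 of the 10826 tested genes. Of 19 tested HIF-1 genes, 5 rose and 0 fell for rMSA + insulin against insulin, where 14.5% of all tested genes rose and 2.73% fell. For rMSA against vehicle 2 rose and 1 fell, where 5.9% of all tested genes rose and 1.89% fell. Egln3, an oxygen-sensing prolyl hydroxylase, rose in both, with 28.7 TPM against 11.2 TPM and 28.3 TPM against 15.0 TPM, and so did Higd1a, a mitochondrial protein, with 27.8 TPM against 18.0 TPM and 22.2 TPM against 15.3 TPM. Ddit4, which fell in rMSA livers, rose in AML12 with rMSA + insulin against insulin, with 88.5 TPM against 37.1 TPM. The 4 carriers of lactate and pyruvate that were tested gave 0 calls in either comparison in limma, also at an unadjusted p under 0.05. Among 7252 genes in no list, Neurl3 and Cxcl1 had the patterns most like Ldha over the 12 libraries (Pearson r = 0.991 each). Cxcl1, a chemokine, had 827 to 1004 TPM with rMSA + insulin and 93.3 to 105 TPM with vehicle.

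None of the 9 enzymes passed the threshold for insulin by itself. For insulin against vehicle, limma called 0 of 9 (0% of all tested genes rose and 0% fell), and at an unadjusted p under 0.05 Pkm and Pklr were lower, as were 3517 of the 10826 tested genes while 452 were higher. The median log2 fold change of all tested genes was -0.30, and -0.22 after rescaling without ribosomal protein genes. The part of the high ribosomal protein share of insulin libraries 1 and 2 in these values was not tested. Without insulin library 3, Pklr (log2 fold change -0.40), Pgk1 (-0.61), Pkm (-0.21) and Ldha (-0.24) passed (limma adjusted p of 0.00277 to 0.012). The insulin group of that fit held only insulin libraries 1 and 2, which were rich in ribosomal protein mRNA. The share of all tested genes that passed in that fit is not given here, so these calls cannot be set against it.

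For rMSA + insulin against rMSA, limma called 0 of 9, where 2.95% of all tested genes rose and 1.1% fell (319 and 119 genes, or 619 and 758 after centring on the median gene). The median log2 fold change was 0.04 for the 9 and -0.15 for all tested genes. At an unadjusted p under 0.05, Aldoa, Eno1 and Pfkl were higher and Pklr was lower, as were 1209 and 1705 of the 10826 tested genes. Pklr had 124, 105 and 119 TPM with rMSA + insulin, against 169, 157 and 144 TPM with rMSA. These groups did not overlap, and the log2 fold change was -0.43 (SE 0.11, limma adjusted p = 0.0649). It passed when the fit held these 2 groups alone (adjusted p = 0.00935), as did Aldoa (0.19), Eno1 (0.23) and Pfkl (0.26). Without insulin library 1, 2 or 3, which enter only through the shared spread, 1, 4 and 2 of the 9 passed. The interaction of rMSA and insulin was called for 0 of 9 by limma and for 0.0369% of all tested genes, and at an unadjusted p under 0.05 for Pkm alone (0.24, 95% interval 0.06 to 0.43, adjusted p = 0.647). At that unadjusted level the interaction was above 0 for 607 of the 10826 tested genes and below 0 for 91.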

How the data were processed

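RNA-seq was used to measure 6 db/db livers and 12 AML12 libraries. The values are TPM deposited by the authors, 1 table each for livers and cells. The submitters' processing notes name Trimmomatic 0.33, STAR 2.5.2b, featureCounts (Subread 1.6.0) and GRCm38. The annotation, the use of strand and the TPM formula were not given in the sources used here. Without counts, the study's count-based test could not be run and depth was unknown. All columns were mapped by their names.

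Genes that averaged 1 TPM or more across a table were tested on log2(TPM + 1) with limma 3.58.1 (R 4.3.3), with a mean per group, a mean-variance trend and all 12 AML12 libraries in 1 fit. A fold change on this scale understates changes of low genes. P-values were adjusted by Benjamini-Hochberg over all tested genes of a comparison, with a threshold of 0.05. Comparisons that share libraries are not independent. The fit was tested on simulated data. Shares of Pklr were compared by exact permutation tests.

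The 9 enzymes, the gene lists and the marker lists were chosen with earlier results of these data known. Besides the 9 enzymes, all isoforms of their steps were named, of every other list at most 4 genes with the smallest adjusted p, and the 3 genes most like Pklr and Ldha. Results that need some of these genes are not reported here. Replicate numbers came from the titles. Deviations from group means correlated by 0.531, 0.139 and 0.577 between same-numbered vehicle and rMSA libraries, which meets the limit of 0.1 for pairing, by 0.0954, 0.789 and 0.801 between insulin and rMSA + insulin, and by 0.0498, -0.41 and -0.385 between livers. A fit with these numbers as a block was an alternative, beside other pseudocounts, filters, scalings, weights and left-out libraries. Upstream windows came from RefSeq tables, and shared runs of 50 bases from GENCODE transcripts.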

Additional observations from a re-analysis of the deposited data

Results flagged for a closer look

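Gpi1 rose in the livers and did not pass in cells. Every rMSA liver was above every saline liver (log2 fold change 1.84), while every AML12 library with rMSA alone was below every vehicle library (463.8 to 468.7 TPM against 469.4 to 483.9 TPM, log2 fold change -0.040, not passed). With rMSA + insulin and with insulin the Gpi1 values overlapped. The difference between livers and cells was not tested.

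Pfkfb1 was higher in every rMSA liver (log2 fold change 0.80) and lower in every AML12 library with rMSA + insulin than with insulin (5.90 to 7.04 TPM against 7.28 to 8.32 TPM, log2 fold change -0.22, not passed). This difference was not tested either.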

How the results depend on the processing

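Counts below are of the 9 enzymes past the threshold. Shares of all tested genes under array weights, left-out libraries or fits of 2 groups are not given here. Those counts therefore show only how far the calls depended on the setting, and are no result about the enzymes. In the livers the count was 7 in every alternative except median centring (5) and a log2 fold change required to reach 1 in size (3), and it was 7 without any single liver. With that fold requirement it was 0 in both rMSA comparisons of AML12. For rMSA against vehicle it was 1 with median centring, 5 with array weights, 2 without any single library, and 3 both in a fit of the 2 groups alone and without insulin libraries 1 and 2. For rMSA + insulin against insulin it was 7 with array weights and 2 to 5 without single libraries, for insulin against vehicle 6 and 0 to 4, for rMSA + insulin against rMSA 6 and 0 to 4, and for the interaction 7 and 0. For rMSA + insulin against rMSA it was also 2 with quantile normalization, 1 after rescaling without ribosomal protein genes, and 4 both in a fit of the 2 groups alone and without insulin libraries 1 and 2. Array weights, by limma's gene-by-gene method, turned 2 values: Gpi1 for rMSA + insulin against insulin (0.11) and Pfkl for insulin against vehicle (-0.19). The replicate block left the counts at 7, 2, 3, 0, 0 and 0 and changed no call. The share of Pklr differed by 20.3 to 31.5 points without single livers, and by -2.10 to -1.68 points without single AML12 libraries and -2.36 points without insulin libraries 1 and 2. Of 1215 enzyme values under alternatives, 48 that passed in neither setting changed sign. The tables hold no counts, so the depth behind low genes was unknown.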

Other observations

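Eno1b, a near-copy of Eno1 that holds 48.4% of its 50-base runs, was listed at 0 to 0.28 TPM in rMSA livers and 0 to 0.88 TPM in saline livers, while Eno1 stood at 1453 to 1753 TPM and 582 to 743 TPM. In AML12 it was listed at 527 to 570 TPM with rMSA + insulin, 432 to 463 TPM with rMSA, 431 to 566 TPM with insulin and 415 to 445 TPM with vehicle. Whether the tables treated shared reads alike was not tested.

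Of the 14 genes with a carbohydrate response element in an upstream window, 6 were tested in the livers. In limma 2 passed: Pklr and Fam124a (log2 fold change 1.39, adjusted p = 4.68e-04). Of all tested liver genes, 21.8% rose and 8.38% fell, so this count is near that of all genes. Fam124a was named after its value was seen.

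Pgam2, the muscle phosphoglycerate mutase, averaged 3.67 TPM with rMSA + insulin and 0.78 TPM with insulin (log2 fold change 1.40, limma adjusted p = 1.05e-04), and 3.19 TPM with rMSA and 1.72 TPM with vehicle (0.64, adjusted p = 0.0189). It was named after its values were seen.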
